A study of Bos taurus with 3 samples.

Results

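A small set of contractile cells was picked from the rumen of newborn cattle by the transcripts of their marker genes. Transcripts were counted as UMIs (unique molecular identifiers, 1 for each captured molecule). Limits on quality passed 26020 barcodes, each with 500 to 4000 genes, no more than 50000 UMIs, and no more than 40% of these from the 13 coding genes of the mitochondrion. Barcodes with a UMI of PTPRC (leukocytes) or PECAM1 (endothelium), or with 10 or more UMIs of KRT5, KRT14 and KRT15 per 10000 (epithelium), were set aside, which left 967 stromal barcodes. Of these, 124 held UMIs of at least 3 of ACTA2, MYL9, TPM2, TAGLN, MYH11 and HIGD1B, with at least 2 of ACTA2 and none of LUM or MFAP5. They are called ACTA2 cells in the following, and 1 came from calf 1, 47 from calf 2 and 76 from calf 3. They were set beside 230 fibroblasts of the same stromal barcodes, which held at least 3 COL3A1 UMIs and no ACTA2 UMI (7, 81 and 142 in the order of the calves). Measured values chose both sets, so the levels of these 14 genes are given as a description.

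The tissue was the ventral rumen sac of 3 Holstein calves killed 1 day after birth, with 1 droplet library per calf and no treatment. All 3 calves form 1 group, so every comparison was made between cells of the same libraries, with the calf as the replicate. The outer muscle layers had been stripped off before the tissue was digested with EDTA, trypsin, collagenases, dispase and hyaluronidase. How completely the muscle was removed was not measured, so the layer that each cell came from is not known. The libraries of adult cattle were not analysed here.

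Smooth muscle cells contract through actin and myosin filaments, whose smooth muscle forms are made from ACTA2, ACTG2, MYH11 and the light chain gene MYL9, and tropomyosin (TPM1, TPM2), calponin (CNN1) and desmin (DES) belong to the same apparatus. In a mucosa such cells surround arterioles and can lie as strands in the connective tissue, while pericytes sit on capillaries inside the basement membrane, contract weakly and are known for HIGD1B, RGS5, KCNJ8 and NOTCH3. A myofibroblast is a fibroblast that has gained ACTA2 while it goes on making collagen.

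The libraries of the 3 calves held 82263092 to 106145091 UMIs, and 4886, 10654 and 10480 of their barcodes were kept. Between 11 and 30 of the kept barcodes had the same sequence in any 2 libraries. ACTA2 cells were 0.0205% of the kept barcodes in calf 1 (95% confidence interval 0.000518 to 0.114), 0.441% in calf 2 (0.324 to 0.586) and 0.725% in calf 3 (0.572 to 0.907). The mean was 0.396% ± 0.355 (SD, n = 3 calves), and the interval of calf 1 lay below those of the other 2. Of the stromal barcodes, ACTA2 cells were 0.855%, 14.03% and 14.8%. Set against fibroblasts, they were 12.5% of both sets together in calf 1 (0.316 to 52.7), 36.7% in calf 2 (28.4 to 45.7) and 34.9% in calf 3 (28.6 to 41.6), and the 3 intervals overlap. Set against endothelial cells (at least 2 PECAM1 UMIs), they were 2.56% in calf 1 (0.0649 to 13.5), 15.1% in calf 2 (11.3 to 19.6) and 14.9% in calf 3 (11.9 to 18.3). These exact binomial intervals cover counting error only. Calves 2 and 3 thus gave nearly all of the cells, and values of calf 1 rest on a single cell of 2653 UMIs, in which 1 UMI equals 3.77 per 10000.

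The ACTA2 cells were shallow, with medians of 2653, 2608 and 2467 UMIs in calves 1, 2 and 3, against 2172, 1895 and 2235 in fibroblasts. Over all 124 the range was 1097 to 10910 UMIs and the median 1145 genes. The median mitochondrial share was 6.12% in calf 2 and 1.94% in calf 3, and in fibroblasts it was 7.38% and 4.70%. A gene level is given below per 10000 UMIs, after the cells of each calf were added up.

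The genes of the gate separated the sets in the following way. ACTA2 stood at 30.2, 96.2 and 96.0 per 10000 in ACTA2 cells of calves 1, 2 and 3, and at 0 in fibroblasts by the rule. TPM2 stood at 33.9, 63.3 and 64.5, against 1.19, 1.38 and 1.06 in fibroblasts. MYL9, the regulatory light chain of myosin, stood at 11.3, 35.6 and 28.8, against 0, 1.56 and 1.27. All 3 genes were thus many times higher in the ACTA2 cells of each calf. MYH11, the heavy chain of smooth muscle myosin, had no UMI in the cell of calf 1 and stood at 18.1 and 26.8 in calves 2 and 3, against 0.060 and 0.059 in fibroblasts. TAGLN (transgelin), which is abundant in smooth muscle of other species, was sparse here, with 2.24 and 2.12 in calves 2 and 3. HIGD1B did not follow this pattern, because it stood at 3.19 and 5.33 in ACTA2 cells and at 2.99 and 6.38 in fibroblasts of the same calves. That HIGD1B level came from 25 of the 230 fibroblasts, which are described at the end.

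**Figure D1:**
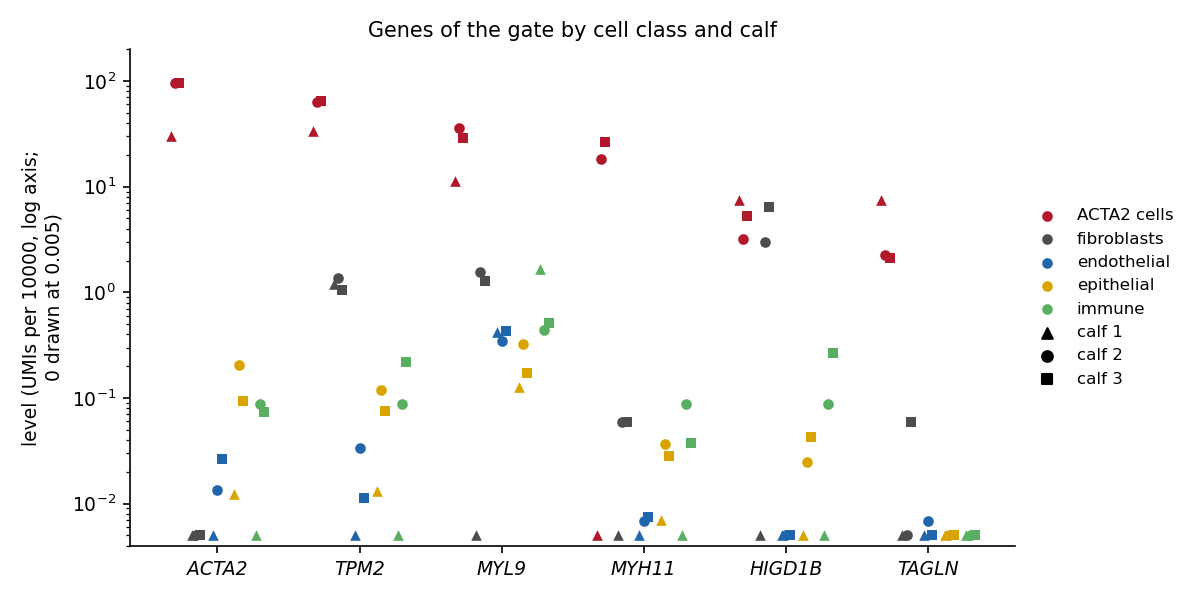
Levels of the 6 genes that chose the ACTA2 cells, in UMIs per 10000 on a log axis, for 5 classes of cells (colours) and 3 calves (shapes), with 0 drawn at the bottom of the axis. ACTA2, TPM2, MYL9 and MYH11 of calves 2 and 3 are far higher in ACTA2 cells than in the other classes, whereas HIGD1B of these calves is at similar levels in ACTA2 cells and fibroblasts.

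Around the limits of the gate, 18 stromal barcodes held exactly 1 ACTA2 UMI and 13 ACTA2 cells exactly 2. None of these 13 held a MYH11 UMI and 10 held a HIGD1B UMI. With 2 or more ACTA2 UMIs, 10 barcodes fell short of 3 genes, while 16, 58, 44 and 6 ACTA2 cells held 3, 4, 5 and 6 of the 6 genes. The keratin limit alone set aside 80 barcodes that met every other condition, 48 of them at 10 to 30 keratin UMIs per 10000. They held a median of 3198 UMIs, and 45 of them had a MYH11 UMI. A UMI of PTPRC or PECAM1 alone set aside 2.

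Contractile genes that the gate did not use were also higher in the summed ACTA2 cells than in fibroblasts. The gate asked for contractile genes on 1 side and no ACTA2 on the other, so this describes the sets and does not test a label. The genes were not found in every ACTA2 cell, as given below. CNN1, which binds actin and slows myosin, stood at 3.77, 15.9 and 12.8 per 10000 in ACTA2 cells of calves 1, 2 and 3 and had a single UMI in all fibroblasts together. That is 530 UMIs against 1, a ratio of 727 after scaling by the totals, with a counting interval of 129.9 to 28769.7. This interval and those of the later ratios cover the counting error of UMIs only, and not the spread between cells or calves. ACTG2, the enteric form of smooth muscle actin, stood at 0, 9.85 and 15.6, with 506 UMIs in ACTA2 cells and none in fibroblasts, or at least 231-fold higher when fibroblasts are set to a floor of 3 counts over all of them. DES, the intermediate filament of muscle, stood at 7.54, 9.99 and 10.6, against 0, 0.18 and 0.30. The lowest ACTA2 level of each of CNN1 and DES exceeded the highest fibroblast level.

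Cells were also compared at 1 depth, by drawing 2000 UMIs from each cell that held as many, which kept 94 ACTA2 cells and 720 endothelial cells (medians of 2567.5 and 5057 UMIs before drawing, over all cells of each class). A CNN1 UMI was then found in 48.9% of the ACTA2 cells, a DES UMI in 53.2% and an ACTG2 UMI in 52.1%. In endothelial cells, which should lack these genes, CNN1 and DES were each found in 0.139% and ACTG2 in 0 of 720, which allows a share of up to 0.417%. Without drawing, the shares in ACTA2 cells were 43.5% for CNN1, 57.3% for DES and 47.6% for ACTG2. NOTCH3, the Notch receptor of mural cells, was found in 61.7% of the drawn ACTA2 cells and 0.556% of the endothelial ones. All of these shares lay far above the endothelial background.

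For all genes, UMIs of the ACTA2 cells and of the fibroblasts were summed per calf and fitted by edgeR with the calf as a block, and a gene was called at a Benjamini-Hochberg adjusted p under 0.05. Of 2078 genes that passed the filter on low counts, 552 were called (26.6%), 212 higher in ACTA2 cells (10.2%) and 340 lower (16.4%). The gates cut on genes of the same cells, so these calls describe what the gates separated and support nothing beyond that. The filter asks for enough counts in at least 3 of the 6 sums, so ACTG2, LMOD1, PPP1R14A and KCNMB1, which had no UMI in the single cell of calf 1, did not enter the fit. Without calf 1, 897 of 3033 genes were called, 419 of them higher. The fit rests on both of the other calves as well, since 190 genes were called without calf 2 and 225 without calf 3. DESeq2 on the same sums called 297, 73 higher and 224 lower, with the median of all genes shifted to -0.29 from -0.06 on the log2 scale.

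The contractile list had 40 genes, 5 of them in the gate. Of the 18 that could be tested, 16 were called higher in ACTA2 cells and none lower, with a median log2 difference of 2.58, against -0.06 over all genes tested. The share called higher over all genes was 10.2%. The largest differences were those of CNN1 (8.89 ± 0.62, SE), DES (5.28 ± 0.43), TPM1 (4.50 ± 0.38) and FLNA (3.81 ± 0.36), which crosslinks actin. TPM1 stood at 11.3, 37.6 and 34.9 per 10000, against 1.78, 1.50 and 1.27 in fibroblasts. The smooth muscle kinase MYLK (3.50 ± 0.37) and the adaptor CSRP1 (3.50 ± 0.35) were also higher. PLN, the inhibitor of the calcium pump of muscle, stood at 7.54, 6.32 and 7.49, against 1.78, 0.54 and 1.09, a log2 difference of 2.87 ± 0.35. TPM4 (0.69 ± 0.31) and the small heat shock protein gene HSPB6 (-0.47 ± 0.35) did not pass the test. The regulators that switch on this program were near the detection limit in both sets. MYOCD, the coactivator of smooth muscle genes, stood at 0, 0.14 and 0.22 per 10000 in ACTA2 cells and had no UMI in fibroblasts, and its partner SRF stood at 0.34 and 0.17 in calves 2 and 3.

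Outside the lists, the genes with the largest higher levels in ACTA2 cells included SORBS2, an adaptor of muscle adhesion sites, at 3.77, 10.3 and 13.9 per 10000 against 0, 0 and 0.12, a log2 difference of 7.16 ± 0.52. AOC3, the amine oxidase of smooth muscle and fat cells, stood at 3.77, 4.21 and 3.85 against 0, 0.30 and 0.15 (4.22 ± 0.45). CRIP1 (4.41 ± 0.40) and RBPMS2, an RNA-binding protein of visceral muscle (3.54 ± 0.51), were higher in each calf. FBXL22, a ubiquitin ligase part of muscle, had 44 UMIs against 2, a ratio of 30.2 (7.87 to 257), and ITGA3 33 against 2, a ratio of 22.6 (5.79 to 195). FABP4, a fatty acid carrier, stood at 3.77, 9.31 and 2.60 against 0, 0 and 0.53 and was far higher in calf 2 than in calf 3. PARM1 completed the 12 largest, with 3.62 ± 0.67.

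The matrix genes went the other way. Of 33 tested genes of the fibroblast matrix list, 30 were called lower in ACTA2 cells, 1 higher and 2 neither way, with a median log2 difference of -3.43. The share called lower over all genes was 16.4%. The choice of fibroblasts by COL3A1 and the bar on LUM and MFAP5 bear on this list directly. COL1A1 stood at 0, 5.91 and 4.03 per 10000 in ACTA2 cells and at 105, 116 and 113 in fibroblasts, and COL1A2 at 3.77, 11.6 and 7.45 against 101, 125 and 126. PDGFRA, the receptor that marks fibroblasts, had no UMI in ACTA2 cells and 228 in fibroblasts, at least 55.4-fold lower at the floor of 3 counts. DLK1 had none against 609 (at least 148-fold lower), and CXCL14, a chemokine of fibroblasts, had 3 against 3659, a ratio of 889 (304 to 4313). DPT, a small protein of the dermal matrix, had 2 against 532, a ratio of 194 (53.4 to 1605). SPON2, PENK, SERPINI1, NDNF, MRC2, PDPN, CPZ and COL16A1, which were also among the largest lower levels, had no UMI in ACTA2 cells and 87 to 371 in fibroblasts.

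Some secreted proteins of the matrix list were shared. MGP, the inhibitor of calcification, stood at 64.1, 39.4 and 52.0 per 10000 in ACTA2 cells and at 243, 201 and 233 in fibroblasts, a log2 difference of -2.42 ± 0.26. ELN (elastin), which smooth muscle of vessels also makes, stood at 0, 15.7 and 12.99 against 28.5, 22.8 and 18.3, and differed by -0.84 ± 0.30. BGN (biglycan) stood at 0, 5.91 and 5.20 against 3.56, 2.69 and 3.60 and did not pass the test (0.65 ± 0.31). IGFBP5, which binds insulin-like growth factors, was the gene called higher, with 0, 11.6 and 3.38 against 0.59, 2.16 and 2.16 (1.43 ± 0.32).

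**Figure D2:**
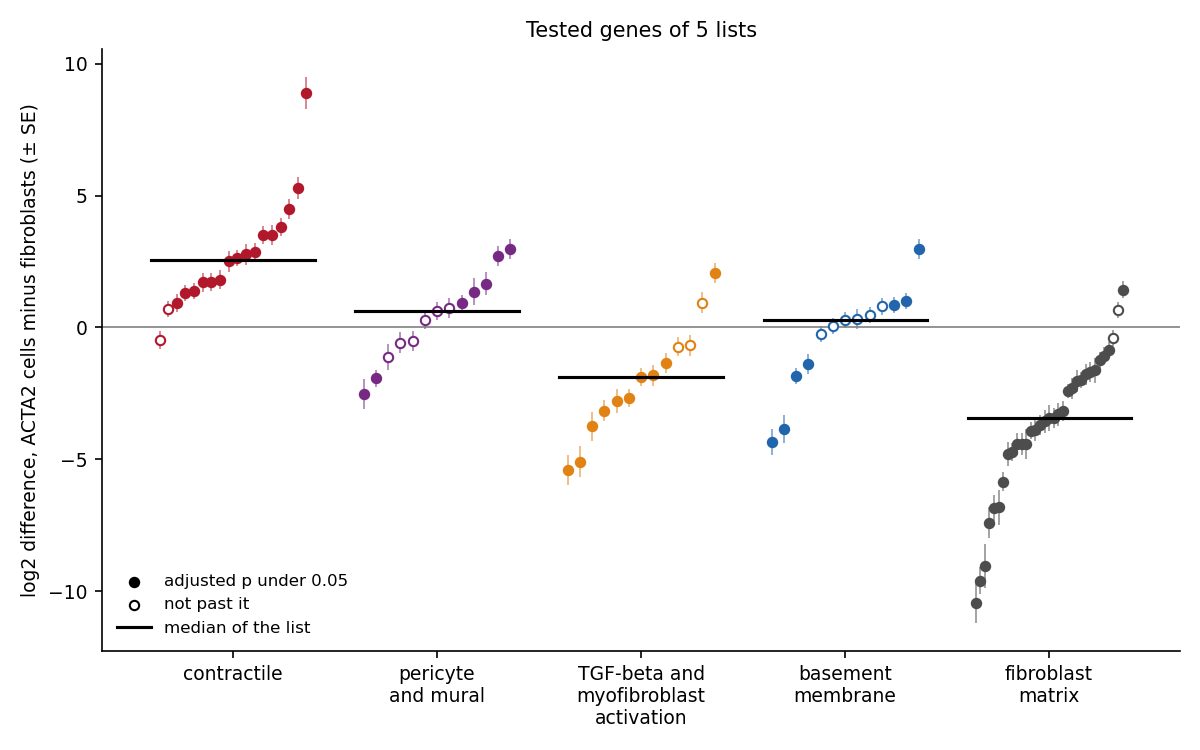
The log2 difference between ACTA2 cells and fibroblasts (y axis, with SE) of each tested gene in 5 lists, ordered within a list, with the median of the list as a bar. Contractile genes lie above 0 except HSPB6 (-0.47), matrix genes lie mostly below, and the mural and basement membrane lists spread around 0.

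Genes of the myofibroblast activation list were mostly lower in these cells than in fibroblasts. Of 13 tested genes of that list, 9 were called lower in ACTA2 cells than in fibroblasts, 1 higher and 3 neither way, with a median log2 difference of -1.87. Over all genes tested, 16.4% were called lower and 10.2% higher. The bar on LUM and MFAP5 had set aside 43 barcodes that held ACTA2 and had more COL1A1 than the ACTA2 cells. Whether the cells are myofibroblasts was therefore not tested. POSTN (periostin), which activated fibroblasts secrete, had 3 UMIs in ACTA2 cells and 156 in fibroblasts, a ratio of 37.9 (12.7 to 186). TGFBI, which the growth factor TGF-beta induces, had 3 against 179, a ratio of 43.5 (14.6 to 213). LTBP4, which holds latent TGF-beta in the matrix (-3.75 ± 0.57), and BMP4 (-3.15 ± 0.39) were lower as well. The exception was CCN2 (connective tissue growth factor), at 0, 2.24 and 3.98 per 10000 against 0.59, 0.42 and 0.95, with a log2 difference of 2.06 ± 0.37. Its relative CCN1 was lower, at 0, 1.22 and 5.67 against 38.0, 9.10 and 25.9. Collagen transcripts were present all the same. With 2000 UMIs drawn per cell, COL3A1 was found in 76.6% of ACTA2 cells and 1.39% of endothelial cells, and COL1A2 in 74.5% and 0.694%. Without drawing, the shares in ACTA2 cells were 72.6% and 74.2%. The cells thus held collagen transcripts above the endothelial background and below the level of fibroblasts, which were chosen for COL3A1.

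Of 13 tested genes of the pericyte and mural list, 5 were called higher in ACTA2 cells, 2 lower and 6 neither way (median log2 difference 0.61). Among all genes tested, 10.2% were called higher and 16.4% lower. NOTCH3 stood at 3.77, 6.05 and 5.41 per 10000, against 0, 0.72 and 0.68 in fibroblasts (2.98 ± 0.37). COX4I2, a subunit of cytochrome oxidase found in pericytes, stood at 15.1, 3.53 and 4.37 against 0, 0.54 and 0.71 (2.70 ± 0.38). GJA4 (1.67 ± 0.43), ANGPT2 (1.35 ± 0.50) and EPAS1 (0.93 ± 0.32) were the others called higher. The transcription factor gene FOXF2 (-2.53 ± 0.57) and ASPN (-1.93 ± 0.33) were called lower. PDGFRB, the receptor by which endothelium recruits pericytes, was hardly captured, at 0, 0.20 and 0.22 in ACTA2 cells and 0, 0.30 and 0.41 in fibroblasts, so no difference in PDGFRB was detectable at this depth.

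Ligands for the mural receptors were measured in the endothelial cells. PDGFB, the ligand of PDGFRB, stood at 1.08, 0.73 and 0.63 per 10000 in endothelial cells of calves 1, 2 and 3, against 0, 0.34 and 0.35 in ACTA2 cells. The Notch ligand DLL4 stood at 1.12, 1.35 and 0.94 in endothelial cells, against 0, 0 and 0.087. JAG1, another Notch ligand, was found in both, at 1.64, 1.49 and 1.81 in endothelial cells and 0, 2.31 and 1.39 in ACTA2 cells. Of the 7 tested genes of the vessel wall list, ACTA2 cells were called higher than fibroblasts for NOTCH3, PDGFA (2.89 ± 0.44), ANGPT2 and JAG1 (1.28 ± 0.40), and lower for PDGFRA, NRP1 (-1.03 ± 0.39) and CXCL12 (-2.79 ± 0.35). All genes tested gave 10.2% called higher and 16.4% lower.

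Receptors of vasoactive signals were sparse. Of 4 tested genes of that list, GUCY1B1, a subunit of the nitric oxide receptor, was called higher in ACTA2 cells (1.16 ± 0.35), with 0, 2.65 and 3.29 per 10000 against 0, 0.66 and 1.83. A share of 1 in 4 lies near the 26.6% called over all genes tested and is no result about the list. Its partner GUCY1A1 (0.80 ± 0.34), the cyclic GMP kinase PRKG1 (1.06 ± 0.45) and the endothelin receptor EDNRA (-0.04 ± 0.34) did not pass the test. EDNRA stood at 0, 2.58 and 1.90 in ACTA2 cells, and its ligand EDN1 at 0.47, 0.47 and 0.80 in endothelial cells. The muscarinic receptors CHRM2 and CHRM3, through which nerves drive gut muscle, had no UMI in ACTA2 cells or fibroblasts.

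In the basement membrane list, 13 genes were tested, of which 3 were called higher in ACTA2 cells, 4 lower and 6 neither way (median log2 difference 0.28). The shares over all genes tested were 10.2% higher and 16.4% lower. ITGA7, the laminin receptor of muscle, stood at 0, 4.62 and 5.07 per 10000 against 0, 0.42 and 0.71 (2.97 ± 0.38). LAMB2, the laminin chain of muscle and vessels, was higher (1.00 ± 0.31), and LAMB1 (-4.34 ± 0.50) and LAMA2 (-3.85 ± 0.54) were lower. SPARC was lower too, by -1.84 ± 0.29. COL4A1, the common chain of collagen IV, stood at 11.3, 8.36 and 11.4 against 3.56, 6.05 and 10.2 and did not pass the test (0.28 ± 0.31).

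Complement and chemokine genes were low. None of 9 tested was called higher in ACTA2 cells and 6 were called lower, with CXCL14 as given above and C1S (-3.88 ± 0.42) and C1R (-3.56 ± 0.43) among them. Over all genes tested, 10.2% were called higher and 16.4% lower. CCL11 had no UMI in ACTA2 cells and 356 in fibroblasts. Of 24 tested immediate-early and heat shock genes, which also respond to dissociation, 4 were called higher, 2 lower and 18 neither way (median 0.06), a share close to the 26.6% called over all genes. HSPB1, which smooth muscle holds at rest, stood at 45.2, 35.5 and 42.4 per 10000 against 2.97, 10.8 and 13.6 (1.78 ± 0.30), and NR4A1 was higher by 1.94 ± 0.38. HSPA1A (-2.05 ± 0.34) and HSPH1 (-1.54 ± 0.43) were lower.

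Marker lists of other cells were summed in the ACTA2 cells. The endothelial list (22 genes) stood at 0, 2.17 and 1.78 per 10000 in calves 1, 2 and 3, the epithelial list (20 genes, with the keratins of the gate) at 15.1, 10.3 and 6.54, and the immune list (20 genes) at 0, 3.06 and 12.2. In fibroblasts the endothelial list stood at 1.78, 2.52 and 1.80, the epithelial list at 11.9, 11.3 and 7.80, and the immune list at 0.59, 2.34 and 2.22. A single ACTA2 cell of calf 3 held 149 of the 158 UMIs of the class II genes BOLA-DRA and CD74. Leaving it out gave 545 called genes against fibroblasts. Markers of glia stood at 0, 0.20 and 0.22, those of red cells at 0, 0 and 0.13, and those of striated muscle at 0, 0.068 and 0.52, the last from 1 gene of 15 in either calf. The list for the interstitial cell of Cajal, the pacemaker of gut muscle, stood at 7.54, 2.11 and 1.99, against 1.78, 1.14 and 1.00 in fibroblasts. Of this, GJC1, which also stands on the pericyte list, gave 1.43 and 1.60 in calves 2 and 3, and ANO1 all of it in calf 1. The cycling list stood at 0, 10.1 and 14.03, against 4.75, 2.99 and 3.16 in fibroblasts, and 4 ACTA2 cells held 205 of the 215 UMIs of TOP2A, CENPF, MKI67, TPX2 and UBE2C. Without these 4 cells, 475 genes were called against fibroblasts. The part of such RNA in the other results was not tested.

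HIGD1B and MYH11 UMIs were mostly found in different ACTA2 cells. MYH11 alone was found in 65 cells (24 of calf 2 and 41 of calf 3), HIGD1B alone in 30 (1, 13 and 16), both in 13 (0, 1 and 12) and neither in 16 (0, 9 and 7). A MYH11 UMI was found in 7.14% of HIGD1B-positive cells and 72.7% of HIGD1B-negative cells in calf 2, and in 42.9% and 85.4% in calf 3. With 2000 UMIs drawn per cell, the shares were 12.5% and 70.0% in calf 2 and 12.5% and 87.2% in calf 3, and 3 of 94 cells held both. The gate bears on this, because a cell without HIGD1B had to hold 3 of the other 5 genes, MYH11 among them. Cells with MYH11 alone were also deeper, with a median of 3298 UMIs against 2226.5 in cells with HIGD1B alone.

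The sums of genes outside the gate also differed between these subsets. Per cell, the summed contractile list without gate genes had a median of 289 UMIs per 10000 in cells with MYH11 alone (118 to 868), 220.1 with both (100.5 to 423), 142 with neither (88.1 to 245) and 130.1 with HIGD1B alone (55.7 to 306). The pericyte and mural list without HIGD1B had medians of 28.02, 44.1, 25.8 and 54.6 in the same order. The matrix list differed less, with medians of 118, 107, 109 and 88.0. The ranges of the 4 subsets overlapped in each of these sums.

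**Figure D3:**
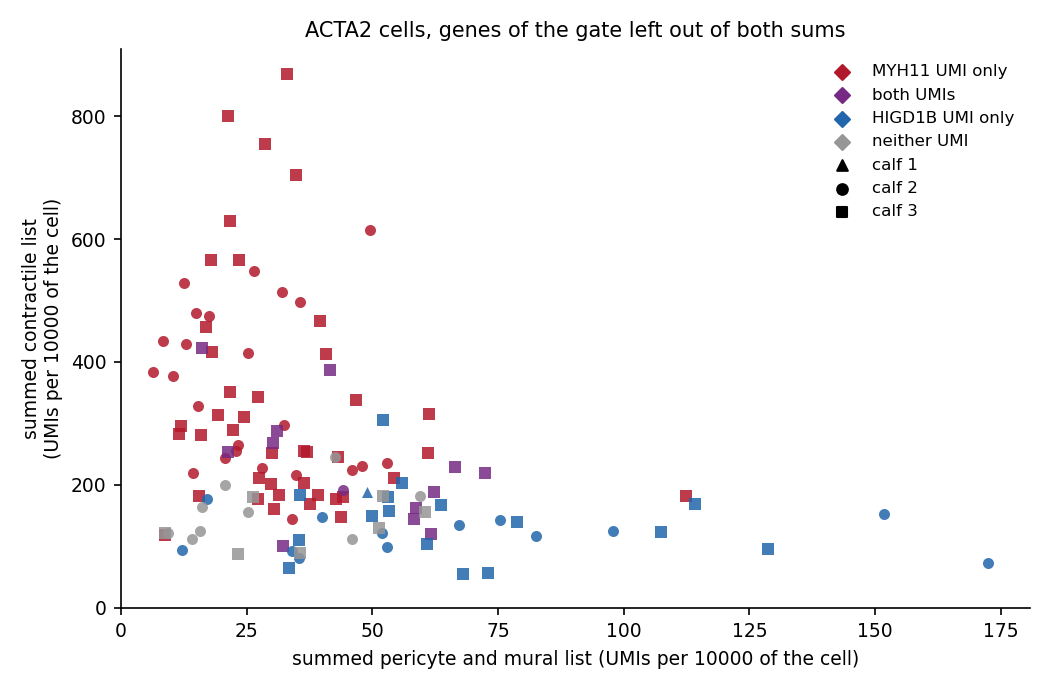
Each point is 1 of the 124 ACTA2 cells, by its summed pericyte and mural list (x axis) and summed contractile list (y axis), both in UMIs per 10000 of the cell and without genes of the gate. Colour shows whether the cell held a MYH11 or HIGD1B UMI and shape the calf. Cells with MYH11 alone reach 868 on the y axis and cells with HIGD1B alone reach 172 on the x axis, with few cells high on both.

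The split by HIGD1B was fitted in calves 2 and 3 (42 cells with the gene and 81 without), since calf 1 had a cell on 1 side only. HIGD1B and MYH11 belong to the gate and their split leans on genes of the same cells, so the calls describe how the subsets differ. Of 1389 genes tested, 66 were called (4.75%), 27 higher with HIGD1B (1.94%) and 39 lower (2.81%). These counts depended on the settings. With cells drawn to 2000 UMIs edgeR called 0 of 674 genes, with 107 at an unadjusted p under 0.05, and DESeq2 called 26 on the full counts. Of the 66 the leading genes are given here by their levels in the cells with HIGD1B alone and with MYH11 alone. The log2 differences beside them are those of the whole split, which also holds the 13 cells with both UMIs and the 16 with neither. The levels leave those cells out and are not the values that were tested.

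Some pericyte genes were called higher with HIGD1B. Of 14 tested genes of that list, 4 were called higher, 1 lower and 9 neither way (median log2 difference 1.08). Among all genes of this split, 1.94% were called higher and 2.81% lower. RGS5, which dampens G protein signals in pericytes, stood at 2.73 and 7.35 per 10000 in cells with HIGD1B alone of calves 2 and 3, against 0 and 0.15 in cells with MYH11 alone (log2 difference across the HIGD1B split 4.41 ± 0.54). KCNJ8, the pore of a potassium channel that responds to ATP, stood at 5.15 and 3.15 against 0.33 and 0 (3.99 ± 0.60). NDUFA4L2 stood at 1.21 and 3.68 against 0 and 0.51 (2.63 ± 0.40), and the connexin gene GJC1 at 3.94 and 3.15 against 0.77 and 0.80 (1.84 ± 0.37). RGS5 was sparse even so, and was found in 12.8% of the ACTA2 cells drawn to 2000 UMIs, against 14.2% of 127 fibroblasts and 0 of 720 endothelial cells, which allows up to 0.417%. Fibroblasts did not share it evenly. Those with a HIGD1B UMI had RGS5 at 2.86 and 7.50 per 10000 in calves 2 and 3, and the others at 0.14 and 0.035.

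Other genes were called higher with HIGD1B. IGF2, a growth factor of fetal stroma, stood at 28.5 and 22.1 in cells with HIGD1B alone against 3.41 and 2.54 in cells with MYH11 alone (2.21 ± 0.20). CXCL12, the chemokine that holds CXCR4 cells near vessels, stood at 5.15 and 4.20 against 1.32 and 0.29 (2.06 ± 0.43), and IGFBP3 at 1.52 and 3.15 against 0.22 and 0.15 (2.80 ± 0.57). IFI27, an interferon-induced gene, stood at 14.6 and 22.1 against 1.43 and 2.40 (2.48 ± 0.24). PLAT, ADAMTS4 and ARHGDIB completed this group with log2 differences of 2.30 ± 0.46, 2.01 ± 0.36 and 1.87 ± 0.35. ARHGDIB is a gene of leukocytes and the 1 tested gene of the immune list. The summed immune list stood at 7.58 and 57.8 per 10000 in cells with HIGD1B alone, against 1.101 and 2.18 with MYH11 alone, and the cell with 149 class II UMIs was a calf 3 cell with HIGD1B alone. Without that cell 82 genes were called, and ARHGDIB differed by 1.90. HSPA1A, a heat shock gene that also responds to dissociation, was called higher with HIGD1B (1.70 ± 0.31) and lower with MYH11 (-1.28 ± 0.27), at 6.67 and 23.6 with HIGD1B alone against 2.97 and 4.00 with MYH11 alone. The part of immune RNA and of stress in the split was not tested. APOE and the class I gene BOLA were higher with HIGD1B in both calves, but their levels differed widely between the calves. APOE stood at 104 in calf 2 and 8.66 in calf 3 with HIGD1B alone, against 4.40 and 1.31 with MYH11 alone, and BOLA at 0.91 and 18.4 against 0.11 and 1.31.

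Some contractile genes were called lower with HIGD1B. Of 24 tested, 11 were called lower, none higher and 13 neither way (median log2 difference -1.32, against 0.03 over all genes tested). The share called lower over all genes was 2.81%. CNN1 had no UMI in cells with HIGD1B alone of calves 2 and 3 and stood at 25.3 and 20.7 per 10000 with MYH11 alone (-4.88 ± 0.36). ACTG2 stood at 2.43 and 0.53 against 14.4 and 24.4 (-2.59 ± 0.29), and DES at 3.34 and 0.79 against 13.8 and 16.4 (-2.60 ± 0.32). KCNMB1, the accessory subunit of the calcium-activated potassium channel of smooth muscle, had 1 UMI with HIGD1B and 38 without, a ratio of 16.3 (2.75 to 659.8). SORBS2 (-2.28 ± 0.23), CCN2 (-2.47 ± 0.37), CKB (-3.39 ± 0.49) and CCDC3 (-2.56 ± 0.50) were lower too. CPE, which stands on the pericyte list, went with the contractile genes, with 3 UMIs against 72, a ratio of 10.3 (3.38 to 51.0). NDRG4 had 0 against 45, at least 6.43-fold lower. TOP2A and CENPF, genes of dividing cells, had 1 UMI against 56 and 2 against 69, ratios of 24.0 (4.13 to 964) and 14.8 (3.94 to 124), and 1 cell in each calf held all of the UMIs on the higher side. ELN was lower with HIGD1B, at 3.34 and 3.41 against 23.3 and 18.3 (-2.02 ± 0.26).

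The split by MYH11 gave the near mirror image, from the same cells and therefore not as a separate result. It set 78 cells with the gene against 45 without in calves 2 and 3, and called 124 of 1040 genes (11.9%), 65 higher with MYH11 (6.25%) and 59 lower (5.67%). DESeq2 called 29 (22 higher and 7 lower), the fit without the calf as a block 16 (13 and 3), and the fit of cells drawn to 2000 UMIs 50 (29 and 21). Of 23 tested contractile genes, 16 were called higher and none lower (median log2 difference 1.62, against -0.04 over all genes tested). CNN1 (4.99 ± 0.34), ACTG2 (3.87 ± 0.37) and CSRP1 (2.52 ± 0.19) led them, and CNN2 had 53 UMIs with MYH11 and 1 without, a ratio of 21.0 (3.61 to 846). CKB, the creatine kinase that feeds ATP to contraction, had 103 against 2, a ratio of 20.4 (5.51 to 171). CPE had 73 against 2, a ratio of 14.5 (3.87 to 122), and CCDC3 56 against 3, a ratio of 7.41 (2.41 to 37.0). STMN1, which binds tubulin, was higher by 2.64 ± 0.56. ELN (2.56 ± 0.25) and CCN2 (2.66 ± 0.45) were higher with MYH11. FN1 (fibronectin) was also higher with MYH11, by 2.37 ± 0.60.

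Of 11 tested pericyte and mural genes, 6 were called lower with MYH11, 1 higher (CPE) and 4 neither way (median -1.15). Among all genes of this split, 5.67% were called lower and 6.25% higher. RGS5 (-3.50 ± 0.50), KCNJ8 (-2.95 ± 0.51) and GJA4 (-1.76 ± 0.43) led them. FABP4 (-3.26 ± 0.42), CCL2 (-2.52 ± 0.52) and IGF2 (-2.30 ± 0.24) were among the other genes lower with MYH11. So were APOE (-2.76 ± 0.53), BOLA (-2.34 ± 0.33), PLAT (-2.14 ± 0.47), VSTM4 (-2.68 ± 0.53), SUPT20H (-2.41 ± 0.58), FAM162B (-2.29 ± 0.56) and EPS8 (-2.19 ± 0.42). CCL2, the chemokine for monocytes, stood at 3.34 and 7.35 per 10000 in cells with HIGD1B alone and at 1.32 and 0.15 in cells with MYH11 alone. CENPF and TOP2A, which belong to dividing cells, had 71 and 57 UMIs with MYH11 and none without, at least 9.39-fold and 7.54-fold higher, and the 4 cycling cells held nearly all of them. Without these cells HMGB2 changed from 1.32 to -0.12.

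Several genes had small differences between the sides. NOTCH3 stood at 8.19 and 5.78 per 10000 in cells with HIGD1B alone and at 5.06 and 5.16 with MYH11 alone, a log2 difference of 0.30 ± 0.26 across the HIGD1B split. PLN (-0.40 ± 0.24), CALD1 (caldesmon, -0.12 ± 0.13) and ITGA7 (0.06 ± 0.33) did not pass the test either. HSPB1 differed by 0.01 ± 0.12. A missed threshold does not show that these genes were equal, but their estimates lay within 1 on the log2 scale while CNN1 and RGS5 differed by over 4.

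**Figure D4:**
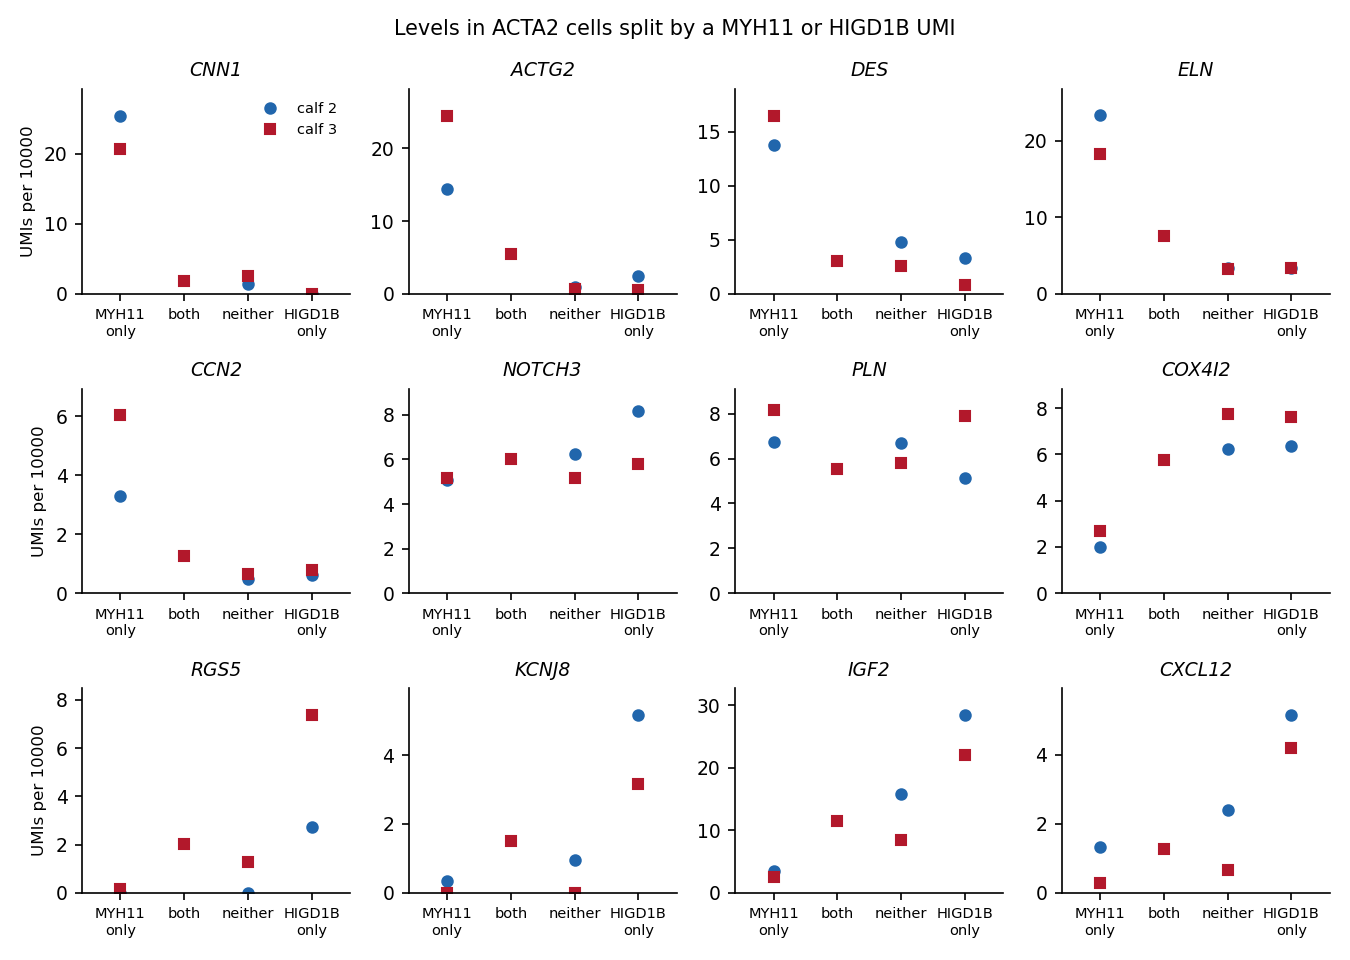
Levels of 12 genes (UMIs per 10000, each panel from 0) in ACTA2 cells with a MYH11 UMI only, both UMIs, neither UMI or a HIGD1B UMI only, for calf 2 (circles) and calf 3 (squares). The single calf 2 cell with both UMIs is not drawn. CNN1, ACTG2, DES, ELN and CCN2 are highest with MYH11 only, RGS5, KCNJ8, IGF2 and CXCL12 are highest with HIGD1B only, and NOTCH3 and PLN are at similar levels throughout.

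The limits of the gate also set aside barcodes with HIGD1B UMIs. The bar on LUM and MFAP5 set aside 43 barcodes that met every other condition, and all 43 held LUM and none MFAP5. Of these 43, 28 held a HIGD1B UMI and 10 a MYH11 UMI. Their COL1A1 level was 16.2 in calf 2 and 13.8 in calf 3, far below the fibroblast levels of 116 and 113 and above the 5.91 and 4.03 of ACTA2 cells. HIGD1B stood at 12.5 and 27.3 in them, and ACTA2 at 46.6 and 36.1. With these barcodes let in, the split by HIGD1B called 219 genes and the split by MYH11 234.

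A group on the fibroblast side also held HIGD1B, but its CXCL14 level differed from that of the 43 barcodes. CXCL14 stood at 10.3 and 10.6 per 10000 in the 43 barcodes of calves 2 and 3 and at 0 in these fibroblasts of both calves. DCN had no common direction in the calves, at 14.9 and 6.27 in the 43 barcodes, against 1.43 and 8.32 in these fibroblasts. HIGD1B UMIs were found in 25 fibroblasts (0, 7 and 18), of which 22 held LUM and none held MFAP5. Their COL1A1 level was 9.52 and 11.97 per 10000, whereas the other fibroblasts stood at 131 in both calves. KCNJ8 stood at 9.99 and 8.92 in the 25 and at 0.069 and 0.31 in the other fibroblasts, and NOTCH3 at 5.71 and 3.45 against 0 and 0.21. MYL9 was present at 3.81 and 3.45, and CNN1 had no UMI. In the ACTA2 cells with HIGD1B alone, KCNJ8 stood at 5.15 and 3.15 and NOTCH3 at 8.19 and 5.78. The 25 fibroblasts thus had KCNJ8 above and NOTCH3 below those levels, and collagen far below the other fibroblasts. With them left out of the fibroblasts, 519 genes were called against ACTA2 cells, 222 higher and 297 lower. LUM, ACTA2 and collagen values chose these sets, so no test was made between them.

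**Figure D5:**
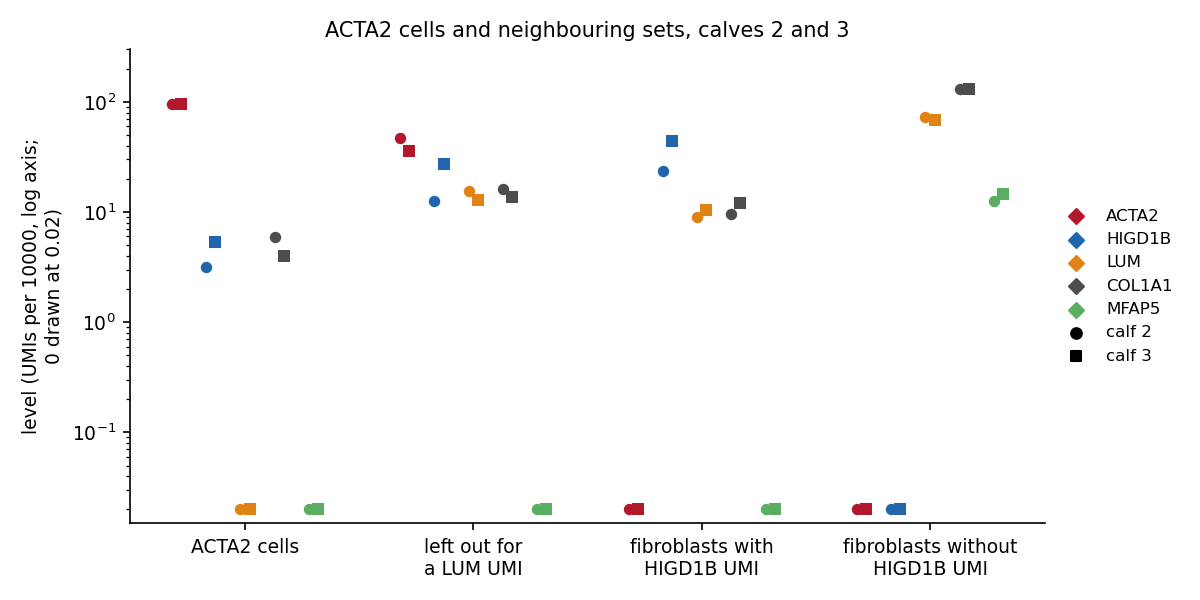
Levels of 5 genes (UMIs per 10000, log axis, 0 drawn at the bottom) in ACTA2 cells, in barcodes set aside for a LUM UMI, and in fibroblasts with and without a HIGD1B UMI, for calf 2 (circles) and calf 3 (squares). Both sets in the middle have HIGD1B between 12.5 and 43.8 and COL1A1 between 9.52 and 16.2, against 131 in fibroblasts without HIGD1B.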

How the data were processed

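Rumen tissue of 3 newborn calves was sequenced with 1 droplet library (10x 3′ chemistry) per calf. The authors deposited unnormalized UMI counts per gene and barcode from Cell Ranger 3.1.0, for 27270 genes, and the deposited counts were used as they stand. The genome build of the study's methods was not needed, as no coordinates were used. Members and gene lists were chosen with earlier results of these data known. UMIs were summed per calf and class and fitted with edgeR 4.0.16 (R 4.3.3, TMM factors, filterByExpr, quasi-likelihood test, Benjamini-Hochberg over all genes tested), with DESeq2 1.42.0 as an alternative. The calf was a block because both sides of every comparison came from the same libraries. The 14 genes of the gate stayed in library sizes and were not tested. Calves with at least 5 cells on each side entered the splits, which left 1 residual degree of freedom. Genes were named by these rules: in each list the called genes with the 4 largest differences and its best known members, and in each comparison the 12 largest differences either way with a symbol, at least 20 UMIs on the higher side and the same direction in every calf, and the endothelial ligands of PDGFRB and NOTCH3. KCNMB1, CCL11 and the genes given as small differences were named after their values were seen. Scrublet (scanpy 1.11.5) called 0, 0 and 2 of the kept barcodes as doublets, which shows that it did not work, so the top 6% of its scores were left out as an alternative. On simulated counts the fit recovered 73 of 80 tested 4-fold changes for ACTA2 cells against fibroblasts (91.2%, 2128 genes). It recovered 79 of 96 for the HIGD1B split (82.3%, 1449 genes) and 92 of 98 for the MYH11 split (93.9%, 1089 genes). Changed genes that failed the filter on low counts are not in these shares. The counts were drawn per sum with 1 spread for all genes, so uneven cells were not simulated. A planned count of promoter motifs was not run. Residual degrees of freedom were 2 against fibroblasts and 1 in each split, and edgeR estimated the spread by sharing information over all genes. The p-values thus rest only in part on the spread of each gene between these calves. The study's own test over cells was not used. The result of 1 gene that the rule named is not reported here.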

Additional observations from a re-analysis of the deposited data

How the results depend on the processing

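Counts of called genes moved with the settings. Directions were checked for the genes named by size of difference, where a setting tested them, and only HMGB2 changed. Genes named for other reasons were not checked. Many of the checked genes lost their call. In the HIGD1B split, 25 of 30 lost it without the replicate block, 18 under DESeq2 and all 19 tested after drawing. In the MYH11 split, 28 of 35 lost it without the block and 18 under DESeq2. Against fibroblasts, 12 of 48 lost it without calf 2 and 5 under DESeq2. Against fibroblasts, 911 genes were called without the filter on low counts, 297 by DESeq2, 281 with cells drawn to 2000 UMIs (fewer genes tested), and 190 to 897 with 1 calf left out. The contractile median was 2.37 under DESeq2, 2.85 without the filter, 1.35 with drawing and 2.43 to 2.92 with 1 calf left out. The matrix median was -3.59 under DESeq2, -3.83 with drawing, -3.94 to -3.23 with 1 calf left out, and -2.73 with LUM allowed. For the HIGD1B split the counts were 26 (DESeq2), 187 (no filter), 0 (drawing), 149 (top 6% of doublet scores left out) and 219 (LUM allowed). For the MYH11 split they were 29 (DESeq2, which gave 222 genes no adjusted p), 220 (no filter), 50 (drawing) and 234 (LUM allowed). Without the calf as a replicate block, 432 genes were called against fibroblasts, 11 in the HIGD1B split and 16 in the MYH11 split. HMGB2 turned to -0.12 in the MYH11 split without cycling cells. The cause of these changes was not tested. Drawing barcodes to 2000 UMIs before the gates left 79 ACTA2 cells, and leaving out 1 calf left 48 to 123. With 1 calf left out the splits have no residual degrees of freedom and no test. The alternatives on LUM, cycling and class II cells, doublet scores, HIGD1B in fibroblasts and a wider keratin limit were chosen after seeing the data. Calf 1 gave 1 cell, so the results rest on calves 2 and 3, and genes under about 1 UMI per 10000 were mostly beyond the depth of these sums.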

Other observations

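Some genes differed between the ACTA2 cells of calves 2 and 3, which the design cannot test with 1 library per calf. APOE, a lipid carrier, stood at 39.96 per 10000 in calf 2 and 4.85 in calf 3, whereas fibroblasts of the same calves stood at 16.8 and 12.1. B2M, the light chain of class I molecules, stood at 7.75 and 19.3, and in fibroblasts at 9.04 and 25.9, so both classes were higher in calf 3. IGFBP5 went the other way in ACTA2 cells, at 11.6 and 3.38, with 2.16 in fibroblasts of either calf. RGS4, a relative of RGS5, stood at 10.3 and 1.05 in cells with HIGD1B alone and had no UMI in cells with MYH11 alone. The chemokine gene CCL19 stood at 13.8 in calf 3 cells with both UMIs and at 0.26 in those with HIGD1B alone. SPARCL1, a protein of the vessel wall, stood at 18.1 and 43.8 with MYH11 alone against 1.82 and 9.71 with HIGD1B alone.

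The 80 barcodes set aside for keratin alone also held contractile genes. ACTA2 stood at 18.4, 58.5 and 33.5 per 10000 in calves 1, 2 and 3, CNN1 at 2.35, 7.86 and 3.32, and COL1A1 at 2.74, 3.54 and 2.19. With keratins allowed up to 30 per 10000, the rule gave 172 cells, at a mean of 0.558% ± 0.435 of the kept barcodes (SD, n = 3 calves). A further 9 stromal barcodes held HIGD1B but no ACTA2, LUM or MFAP5 UMI, 3 in calf 2 and 6 in calf 3, with HIGD1B at 39.9 and 40.2 and KCNJ8 at 5.31 and 3.79.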
